A study of Mus musculus with 9 samples.

Results

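The 36 genes described here encode the machinery of macroautophagy and were taken by symbol from a table of 55401 mouse genes. They comprise 5 genes of the initiation kinase complex, 6 of the Vps34 lipid kinase complex, 6 of membrane supply, 10 conjugation enzymes, 5 LC3 and GABARAP genes and 4 cargo receptors. RNA-seq was performed on RAW264.7 macrophages, a wild-type line derived from tumors that Abelson leukemia virus induced in male mice, in 3 groups with 3 columns each, which the labels number as replicates 5, 6 and 7. The cells received the vehicle DMSO alone, DMSO with lipopolysaccharide (the LPS group, where LPS, an outer membrane lipid of bacteria, drives the inflammatory M1 state), or LPS with the indole compound skatole (the LPS+Ska group). Treatment lasted 24 h by the labels and longer by the methods of the study. No label states whether the 3 columns of a group came from separate cultures, so p-values measure only the spread between these columns.

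Autophagy encloses cytoplasm in a double membrane and delivers it to the lysosome. The Ulk1 kinase complex starts the process, the Vps34 complex makes the lipid phosphatidylinositol 3-phosphate, membrane is supplied through Atg9a, the Atg2 proteins and Vmp1, and a ubiquitin-like conjugation system attaches LC3 and GABARAP proteins to the growing membrane, where cargo receptors bind them. In macrophages the same machinery clears damaged mitochondria and intracellular bacteria, and much of its regulation is by phosphorylation and lipidation of the proteins, which mRNA levels do not measure.

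Expression was given as TPM, in which reads are scaled by gene length and each library to a fixed total, so that levels of different genes can be compared but the sequencing depth is unknown. The columns summed to between 999895 and 1000145 TPM, and between 12498 and 13012 genes per column reached 1 TPM. The macrophage genes Cd68 (574 to 857 TPM) and Lyz2 were high in all 9 columns, and the 4 T cell and 4 epithelial marker genes were listed at 0 in all 9. Lyz2 had means of 9151 TPM with DMSO, 4423 with LPS and 10061 with LPS+Ska. In the same order the means were 835, 522 and 467 TPM for Csf1r and 408, 233 and 230 TPM for Spi1. Adgre1, Itgam, Fcgr1 and Ptprc were also expressed in all columns. Of the 3 B cell markers Cd79a reached 0.672 TPM and the others were at 0, and no fibroblast marker exceeded 0.0337 TPM. Nos2, which LPS induces in macrophages, was listed at 0 in the DMSO columns, and stood at 36.2 to 38.8 TPM in the LPS columns and 24.98 to 32.1 TPM in the LPS+Ska columns. Other LPS response genes did not move together from LPS to LPS+Ska. Mean Il6 went from 4.35 to 0.26 TPM, Tnf from 210 to 207 TPM and Ptgs2 from 158 to 203 TPM, and Il1b, Acod1 and Cxcl10 were lower. Replicate 5 was the average of replicates 6 and 7, to within 5e-06 TPM, in all 17950 genes with 3 values above 0 in the LPS group and all 17658 in the LPS+Ska group. A DMSO column did so in at most 0.0636% of genes. Each of these groups therefore held at most 2 independent values per gene, and n = 3 counts columns. The fits were repeated with 2 recovered values per gene and group. They were set so that replicate 5 is their mean and replicates 6 and 7 lie on either side of it by their difference. This construction is assumed, since how the columns were made is not stated. Fewer cells with a transcript and less transcript per cell cannot be told apart in these bulk samples.

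Of the 36 genes, 34 had a mean of at least 1 TPM over the 9 columns and were tested. Wipi1, which binds the lipid made by Vps34, lay below this limit at 0.39 to 1.38 TPM across all columns. Optn, which encodes the receptor optineurin, was listed at 0 in the 3 DMSO columns and at 0.04, 0.11 and 0 TPM in the LPS columns, and had 0.51, 0.56 and 0.46 TPM with LPS+Ska. Gabarap was the most abundant of the 36 genes in DMSO, at 303, 323 and 328 TPM. Vmp1, Tax1bp1, Gabarapl2 and Atg3 followed with DMSO means of 123 ± 12.0, 84.7 ± 7.73, 73.6 ± 2.38 and 70.7 ± 4.22 TPM (SD, n = 3), and the lowest tested levels were those of Atg10 (3.67 ± 0.621 TPM) and Map1lc3a (4.47 ± 1.68 TPM).

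**Figure D1:**
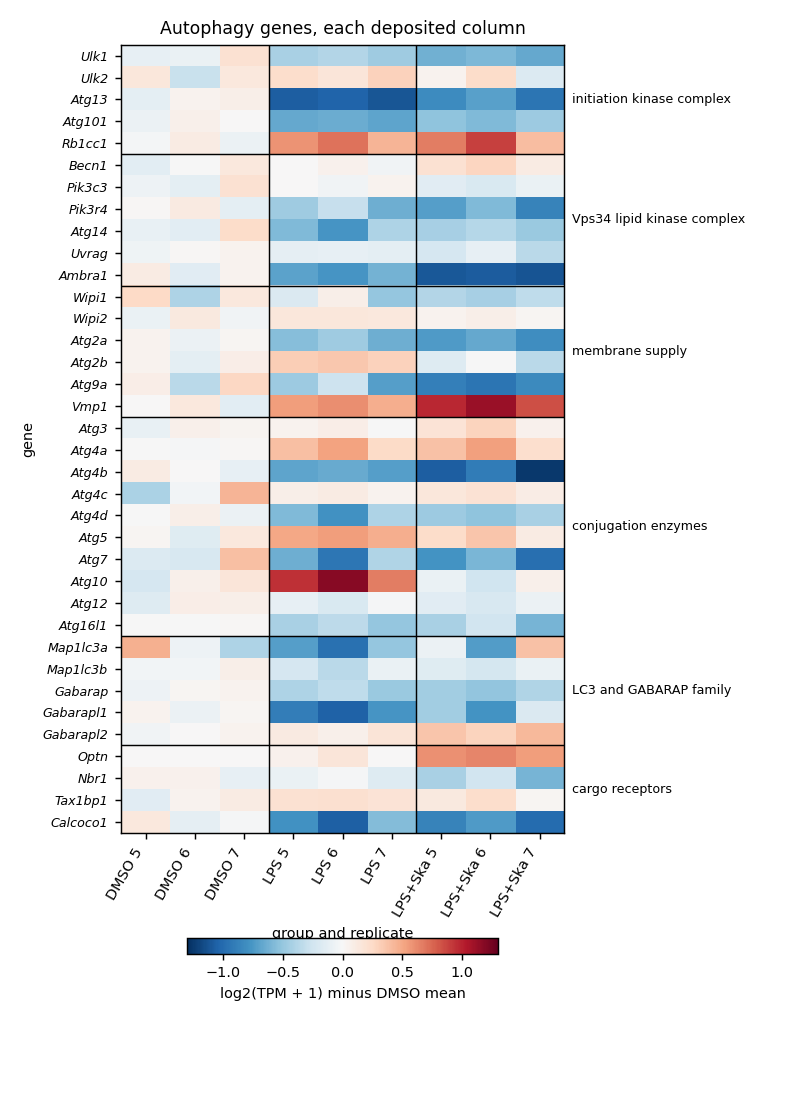
Each of the 36 autophagy genes (rows, by role) in each of the 9 deposited columns (group and replicate), colored by log2(TPM + 1) minus the mean of the 3 DMSO columns. Atg10 is red in the LPS columns alone, Vmp1 is redder with LPS+Ska than with LPS, and Atg13, Ambra1, Atg4b and Calcoco1 are blue in both treated groups.

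The comparison of LPS with DMSO asks how M1 polarization changed these genes. Atg10, the enzyme that joins Atg12 to Atg5, rose, and 9 genes fell, namely Atg13, Gabarapl1, Calcoco1, Ambra1, Atg4b, Atg101, Atg7, Atg4d and Atg14. A gene was called where limma gave a Benjamini-Hochberg adjusted p below 0.05 over 12819 genes and a fold change above 1.5 or below 0.67, on the scale of log2(TPM + 1), which understates the change of low genes. Among all 12819 genes, 12.7% were called higher and 20.0% lower, against 1 and 9 of the 34 autophagy genes. Their median log2 fold change was -0.17, compared with -0.067 for all genes. Without the fold change limits 6 of the 34 genes were higher and 16 lower, where 26.2% and 34.2% of all genes were. With median-ratio scaling of the columns 4 were called higher and 6 lower (Atg4d, Atg7 and Atg14 were lost, and Vmp1, Rb1cc1 and Atg5 were called higher), and the share of called genes that were higher went from 38.9% to 47.8% over all genes. The transcripts of the 9 genes that fell had a median GC content of 53.0%, against 47.0% for the other 25, and after removal of the trend on GC content 3 of the 9 were still called (Atg13, Atg4b and Gabarapl1).

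The comparison of LPS+Ska with LPS asks what skatole changed in LPS-treated cells. No autophagy gene was called higher by limma and Atg10 alone was called lower, while 3.35% of all genes were called higher and 6.14% lower. When the fold change limits were dropped and the adjusted p kept, 4 genes were higher (Vmp1, Atg13, Gabarapl1 and Gabarapl2) and 5 lower (Atg10, Atg2b, Ambra1, Atg4b and Nbr1), where 8.89% and 19.7% of all genes were. At an unadjusted p below 0.05, 5 of the 34 were higher and 7 lower, against 12.7% and 27.8% of all genes. The median log2 fold change of the 34 genes was -0.058 and that of all genes -0.096. With the columns scaled by their median ratio these medians were 0.039 and -0.0046, so the sign of the group median depended on the scaling, and the share of called genes that were higher went from 35.3% to 52.0% over all genes.

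Compared with DMSO, LPS+Ska gave 2 genes called higher (Vmp1 and Rb1cc1) and 9 called lower (Ambra1, Atg4b, Atg9a, Calcoco1, Atg13, Atg7, Atg2a, Pik3r4 and Ulk1). Over all genes 11.4% were called higher and 25.3% lower, and the medians were -0.20 for the 34 genes and -0.18 for all genes on the log2 scale. Dropping the fold change limits gave 5 of the 34 genes higher and 17 lower, compared with 22.7% and 40.6% over all genes. Ambra1, Atg13, Atg4b, Atg7 and Calcoco1 were called lower than DMSO in both treated groups, which share their DMSO columns. With median-ratio scaling the all-gene median was -0.013, Atg2a, Ulk1 and Pik3r4 were no longer called, and the share of called genes that were higher went from 31.0% to 48.4%.

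**Figure D2:**
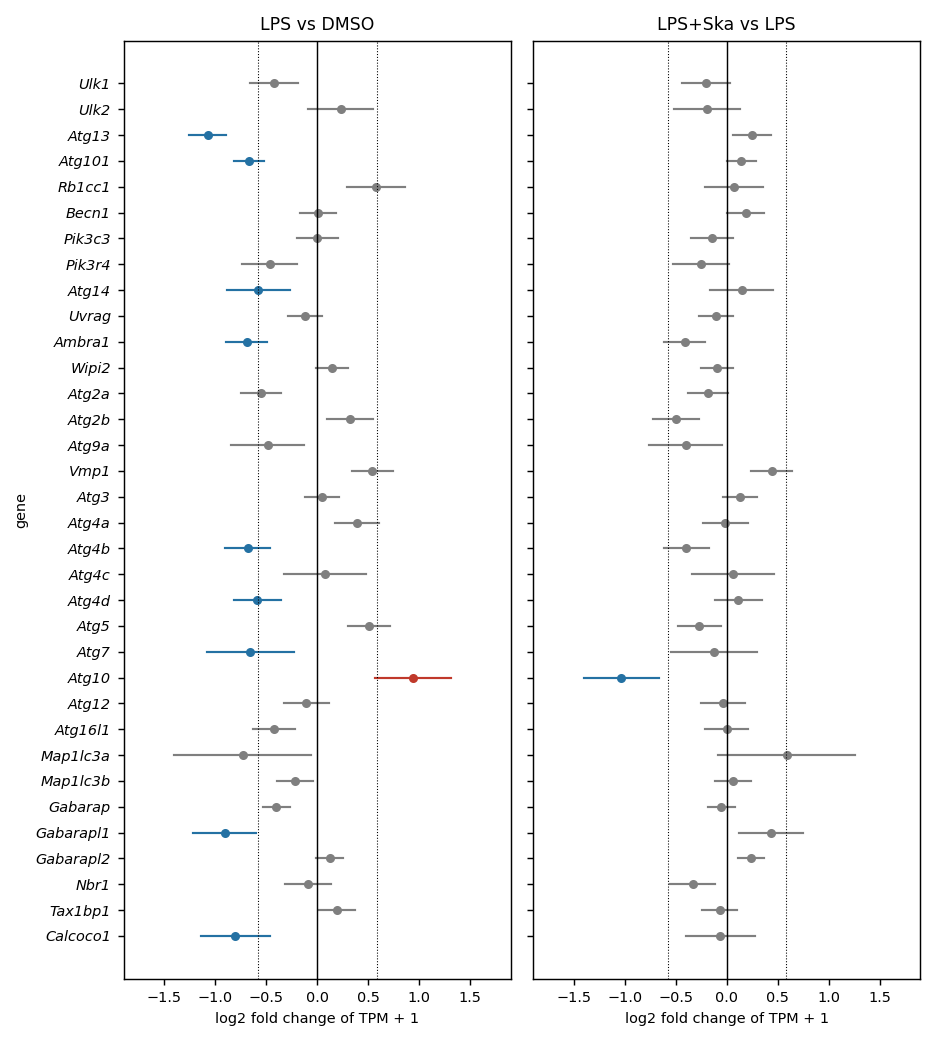
Log2 fold changes of TPM + 1 (x axis) with their 95% confidence intervals for the 34 tested genes, in LPS against DMSO (left) and LPS+Ska against LPS (right). Colored points are called higher (red) or lower (blue), and dotted lines mark fold changes of 0.67 and 1.5. On the left 10 genes are colored and on the right Atg10 alone, at -1.03.

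The promoters of 3 genes are shown because Atg10 had the largest rise with LPS and the largest fall with skatole, Atg13 had the largest fall with LPS, and Vmp1 had the largest rise against DMSO with LPS+Ska. They are windows of 300 bases around the start of transcription, most of it upstream, from RefSeq (GRCm38.p6), all from the minus strand and written 5′ to 3′. Capitals mark matches to TGACNNNGC on either strand, a core of the antioxidant response element that Nrf2 binds. The windows lie at chr13:91223938-91224237 (Atg10), chr2:91710543-91710842 (Atg13) and chr11:86683787-86684086 (Vmp1, the most upstream of its 3 listed starts).
Atg10: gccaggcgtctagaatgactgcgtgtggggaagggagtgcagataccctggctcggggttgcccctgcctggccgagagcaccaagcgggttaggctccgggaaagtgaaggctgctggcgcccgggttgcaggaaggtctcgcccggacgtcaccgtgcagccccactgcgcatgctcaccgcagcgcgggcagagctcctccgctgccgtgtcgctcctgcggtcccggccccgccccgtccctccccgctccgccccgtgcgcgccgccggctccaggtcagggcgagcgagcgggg
Atg13: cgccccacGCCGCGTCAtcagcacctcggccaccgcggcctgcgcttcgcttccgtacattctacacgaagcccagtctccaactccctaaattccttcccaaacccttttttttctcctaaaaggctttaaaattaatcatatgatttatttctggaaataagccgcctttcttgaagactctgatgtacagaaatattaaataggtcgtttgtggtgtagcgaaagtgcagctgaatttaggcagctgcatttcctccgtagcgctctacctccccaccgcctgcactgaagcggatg
Vmp1: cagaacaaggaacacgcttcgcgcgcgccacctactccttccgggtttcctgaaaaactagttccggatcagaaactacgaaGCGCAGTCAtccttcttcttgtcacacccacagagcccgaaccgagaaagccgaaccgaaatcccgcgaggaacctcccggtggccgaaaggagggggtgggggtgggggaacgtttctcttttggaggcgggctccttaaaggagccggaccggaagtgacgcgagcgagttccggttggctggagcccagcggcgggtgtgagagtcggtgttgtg
The Atg10 window is 73.0% GC and held none of the motifs searched, whereas those of Atg13 (49.0% GC) and Vmp1 (60.3% GC) held 1 match each. Of the 36 genes, 30 had a window. TGACNNNGC was found for 5 of them (Atg13, Map1lc3b, Tax1bp1, Ulk2 and Vmp1), against 14.0% of 27025 genes with a window. The E-box CACGTG was found for 4 (Atg14, Atg3, Atg5 and Atg7) against 8.09%, and the longer TCACGTGA, which contains CACGTG and is the core of the element bound by Tfeb, for Atg3 alone against 1.13%, all on both strands. A match describes these letters in this window and not binding.

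In the initiation complex, Atg13 and Atg101, subunits that hold the kinase assembly together, fell with LPS while the scaffold Rb1cc1 (FIP200) was higher. Atg13 (ENSMUSG00000027244) had 52.3, 59.1 and 60.6 TPM with DMSO, 26.6, 27.2 and 26.0 with LPS, and 31.9, 34.8 and 29.1 with LPS+Ska. The LPS columns lay below every DMSO column, and the LPS+Ska columns lay between the other groups without overlap. The log2 fold change was -1.08 for LPS against DMSO (standard error 0.08, adjusted p = 6.0e-06), 0.25 for LPS+Ska against LPS (standard error 0.08, adjusted p = 0.048, within the fold change limits), and -0.83 for LPS+Ska against DMSO (standard error 0.08, adjusted p = 2.4e-05). The call against DMSO held in all 19 alternatives for LPS, with an adjusted p of at most 7.6e-05. For LPS+Ska it was lost after removal of the GC trend (-0.52), and the value against LPS ranged from adjusted p = 0.0029 to 0.14.

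Rb1cc1 had 16.0, 17.5 and 15.3 TPM with DMSO, 24.8, 27.2 and 22.4 with LPS, and 26.4, 31.0 and 21.8 with LPS+Ska. Both treated groups stood above DMSO and overlapped each other. The fold change was 1.49 with LPS, just inside the limit (log2 0.58, adjusted p = 0.0032), and 1.57 with LPS+Ska (log2 0.65, adjusted p = 0.0014), a call that was lost without LPS+Ska replicate 6 and also after removal of the GC trend. Rb1cc1 shares 8.48% of the 50-base windows of its longest transcript with the gene model Gm13961. Atg101 fell by 0.67 on the log2 scale with LPS (adjusted p = 2.3e-05), a call lost after removal of the length trend (-0.52) or the GC trend (-0.21), and its difference from DMSO with LPS+Ska was -0.52 (adjusted p = 8.7e-05), inside the fold change limits. Of the kinases, Ulk1 was at -0.42 with LPS and was called lower than DMSO with LPS+Ska (-0.62, adjusted p = 6.2e-04), a call lost without DMSO replicate 7, with median-ratio scaling (-0.46), and after removal of the length trend (-0.49) or the GC trend (-0.072, adjusted p = 0.57). Ulk2 did not pass the test in any comparison (log2 values -0.19 to 0.23).

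In the Vps34 complex, Ambra1 and Atg14 fell with LPS, and the kinase gene and Becn1 did not pass the test. Ambra1, a scaffold that ties Beclin 1 to the cytoskeleton and to ubiquitin ligases, had 19.9, 16.6 and 19.1 TPM with DMSO, 11.1, 10.4 and 11.7 with LPS, and 8.07, 8.20 and 7.94 with LPS+Ska. The 3 groups did not overlap, with LPS+Ska the lowest. The log2 fold changes were -0.69 for LPS against DMSO (standard error 0.09, adjusted p = 1.5e-04), -0.41 for LPS+Ska against LPS (standard error 0.09, adjusted p = 0.0095) and -1.10 for LPS+Ska against DMSO (standard error 0.09, adjusted p = 6.9e-06). The last call held in all 19 alternatives, that with LPS in all but the GC-trend fit (-0.39), and the value for skatole, which did not reach the fold change limit, ranged over adjusted p = 0.0062 to 0.052.

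Atg14, which directs Vps34 to autophagy, was at -0.58 with LPS (adjusted p = 0.0053), a fold change of 0.6699 that only just reached the limit. The call was lost in 6 of 19 alternatives: without DMSO replicate 7 or LPS replicate 6, with the recovered values, with median-ratio scaling, and after removal of the length or the GC trend. Pik3r4, the Vps15 regulatory subunit, was called lower with LPS+Ska than with DMSO (-0.72, adjusted p = 6.5e-04), a call lost with median-ratio scaling (-0.55) and after removal of the length trend (-0.58) or the GC trend (-0.46). Pik3c3, the Vps34 kinase itself, had log2 fold changes between -0.14 and 0.00087 in the 3 comparisons, and Becn1 between 0.0083 and 0.20, none of which passed the test. The interval for Becn1 in LPS against DMSO was -0.17 to 0.19. Of the exonic bases of Becn1, 43.9% overlap Cntd1 on the opposite strand, which was listed at a mean of 0.92 TPM. Uvrag, a Beclin 1 partner, was at -0.12 with LPS and -0.22 with LPS+Ska against DMSO, and the latter passed the adjusted p alone (0.026).

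In membrane supply, Vmp1 was higher in LPS than in DMSO and higher again in LPS+Ska. Vmp1 (ENSMUSG00000018171), an ER lipid scramblase needed for the membrane to grow, had 123, 135 and 111 TPM with DMSO, 179, 187 and 171 with LPS, and 244, 268 and 220 with LPS+Ska. No column of one group overlapped another group. The log2 fold change was 0.54 for LPS against DMSO (standard error 0.09, adjusted p = 6.6e-04), 0.44 for LPS+Ska against LPS (standard error 0.09, adjusted p = 0.0065) and 0.98 for LPS+Ska against DMSO (standard error 0.09, adjusted p = 1.3e-05). Only the last passed the fold change limit, and it held in all 19 alternatives with an adjusted p of at most 2.0e-04. The value for skatole kept its direction in all 19, at 0.37 to 0.54. The miRNA gene Mir21a lies within Vmp1 exons, sharing 92 bases on the same strand.

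Atg2b and Atg2a encode lipid transfer proteins that fill the membrane. Atg2b, which was named after its values were seen, had 19.6, 17.3 and 20.2 TPM with DMSO, 24.0, 24.5 and 23.5 with LPS, and 16.8, 18.95 and 14.7 with LPS+Ska. The LPS columns lay above both other groups, which overlapped. Against LPS, the log2 fold change with LPS+Ska was -0.49 (standard error 0.10, adjusted p = 0.0064). It was inside the fold change limit except without LPS+Ska replicate 6. Over the alternatives it ranged from -0.58 to -0.28, with an adjusted p of at most 0.033. Against DMSO it was -0.17 (95% confidence interval -0.39 to 0.05). Its paralog Atg2a was at -0.55 with LPS and was called lower than DMSO with LPS+Ska (-0.73, adjusted p = 7.4e-05), a call lost with median-ratio scaling and after removal of the GC trend (-0.13), so the paralogs stood on opposite sides of 0 with LPS.

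Atg9a, the membrane scramblase carried on vesicles, had 42.5, 31.1 and 48.2 TPM with DMSO, 28.4, 33.0 and 23.9 with LPS, and 21.1, 20.2 and 22.0 with LPS+Ska. DMSO replicate 6 fell within the LPS range, and the LPS+Ska columns lay below every other column. It was called lower with LPS+Ska than with DMSO (-0.89, standard error 0.16, adjusted p = 8.8e-04) but not after removal of the GC trend (-0.44), and 42.3% of its 50-base windows recur in other genes, mostly the readthrough model Gm29253, so its counting is uncertain. Wipi2, which recruits Atg16l1, did not pass the test in any comparison (-0.095 to 0.14).

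**Figure D3:**
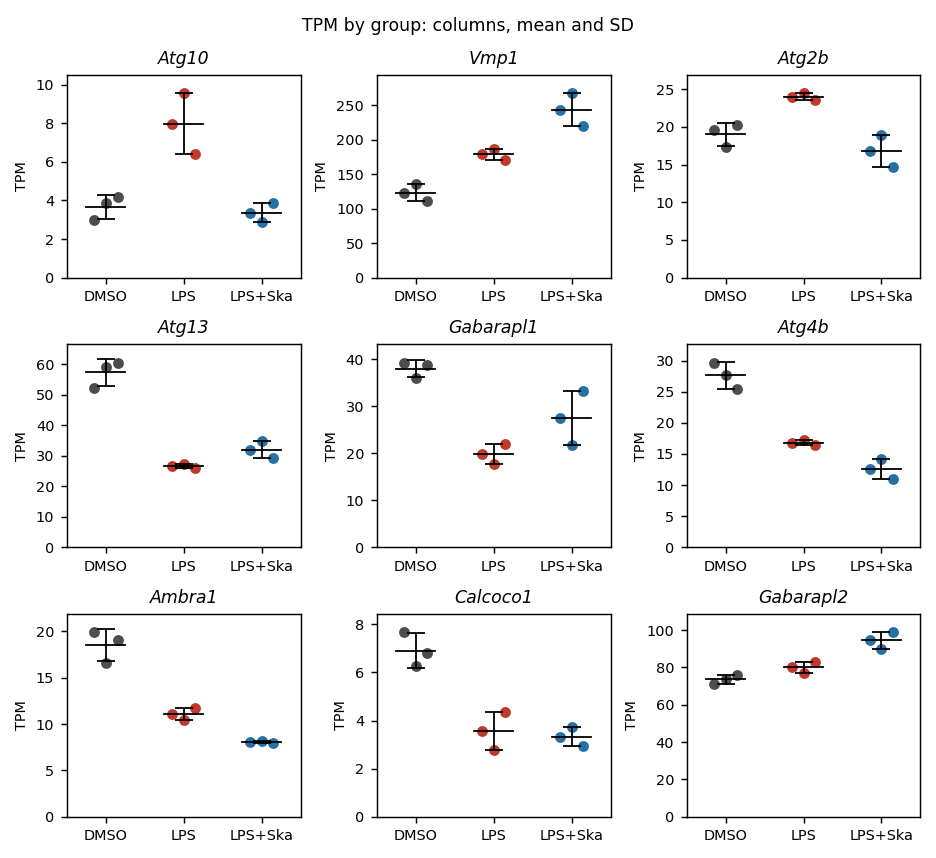
TPM (y axis, from 0) of 9 autophagy genes in the DMSO, LPS and LPS+Ska groups. Points are the 3 deposited columns of a group in the order 5, 6 and 7, the long line is their mean and the bars are 1 SD. Atg10 is at 6.39 to 9.56 TPM with LPS and at or below 4.19 TPM in the other groups, Vmp1 is higher and Ambra1 and Atg4b are lower from each group to the next.

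Of the conjugation enzymes, Atg10 rose with LPS, and with skatole it fell to values that overlapped DMSO. Atg10 (ENSMUSG00000021619, chr13:90935356-91223968 on the minus strand in mm10) had 2.98, 3.84 and 4.19 TPM with DMSO, 7.98, 9.56 and 6.39 with LPS, and 3.36, 2.88 and 3.84 with LPS+Ska. The LPS columns lay above all others, and the LPS+Ska columns overlapped those of DMSO. The log2 fold change was 0.94 for LPS against DMSO (standard error 0.17, adjusted p = 9.4e-04) and -1.03 for LPS+Ska against LPS (standard error 0.17, adjusted p = 0.0022). LPS+Ska and DMSO differed by -0.10 with a 95% confidence interval of -0.47 to 0.28. Both calls held in all 19 alternatives, with adjusted p values of 2.9e-04 to 0.021 and of 0.0018 to 0.015. The level is low, no exon of another gene overlaps it, and 0.130% of its 50-base windows recur elsewhere.

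The 4 Atg4 proteases, which trim LC3 and GABARAP before conjugation and release them afterwards, did not move together. Atg4b, the main protease, had 29.7, 27.7 and 25.5 TPM with DMSO, 16.8, 17.2 and 16.4 with LPS, and 12.6, 14.2 and 11.002 with LPS+Ska. No column of one group overlapped another. The log2 fold changes were -0.68 for LPS against DMSO (standard error 0.10, adjusted p = 2.8e-04), -0.39 for LPS+Ska against LPS (standard error 0.10, adjusted p = 0.017, inside the fold change limit) and -1.08 for LPS+Ska against DMSO (standard error 0.10, adjusted p = 1.4e-05). Both calls against DMSO held in all 19 alternatives, and the adjusted p for LPS+Ska against LPS ranged from 0.0059 to 0.065 over them. Atg4a was at 0.39 with LPS (adjusted p = 0.0067), but 63.6% of its windows are shared with its pseudogene Atg4a-ps and reads could be split between them. Atg4d fell with LPS (-0.59, adjusted p = 8.9e-04), a call lost without DMSO replicate 6 or LPS replicate 6, with median-ratio scaling (-0.51) and after removal of the GC trend (-0.29), and 19.3% of its exonic bases overlap Kri1 on the opposite strand. Atg4c, at 7.66 to 14.7 TPM in the DMSO columns alone, did not pass the test in any comparison.

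Atg7, the activating enzyme of both conjugation reactions, had 22.9, 22.3 and 34.3 TPM with DMSO, and was lower with LPS (-0.66, adjusted p = 0.014) and LPS+Ska (-0.78, adjusted p = 0.0052). The call with LPS was lost without DMSO replicate 7, which is the high column, without LPS replicate 6, with median-ratio scaling (-0.58) and after removal of the GC trend (-0.43), and that with LPS+Ska after removal of the GC trend (-0.46). Atg5, the acceptor of Atg12, was at 0.51 with LPS (adjusted p = 0.0012, fold change 1.42) and at -0.27 with LPS+Ska against LPS (adjusted p = 0.056). Atg16l1, which places the Atg12-Atg5 conjugate on the membrane, was at -0.42 in both treated groups against DMSO, with adjusted p of 0.0033 and 0.0029, both inside the fold change limits. Atg3, the enzyme that loads LC3 and GABARAP onto lipid, and Atg12 did not pass the test in any comparison, with log2 fold changes of 0.045 to 0.17 and of -0.14 to -0.035.

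In the LC3 and GABARAP family, Gabarapl1 fell with LPS and the most abundant member Gabarap was lower in both treated groups, whereas Gabarapl2 was higher with LPS+Ska. Gabarapl1 (ENSMUSG00000030161) had 39.3, 35.96 and 38.7 TPM with DMSO, 19.9, 17.7 and 22.0 with LPS, and 27.5, 21.8 and 33.2 with LPS+Ska. The LPS columns lay below DMSO, and LPS+Ska replicate 6 fell within the LPS range. The log2 fold change was -0.91 with LPS (standard error 0.14, adjusted p = 3.8e-04), a call held in all 19 alternatives. It was 0.43 for LPS+Ska against LPS (standard error 0.14, adjusted p = 0.042, inside the fold change limit), with an adjusted p between 0.0049 and 0.13 over the alternatives. Without LPS+Ska replicate 6 it was 0.59. The little-expressed 1700101I11Rik overlaps 28.3% of its exonic bases on the opposite strand.

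Gabarapl2 had 71.1, 73.7 and 75.9 TPM with DMSO, 80.0, 77.2 and 82.8 with LPS, and 94.4, 90.0 and 98.9 with LPS+Ska. The groups did not overlap, and LPS+Ska was the highest. The difference between LPS+Ska and LPS was 0.24 on the log2 scale (standard error 0.06, adjusted p = 0.015), a fold change of 1.18. Its adjusted p ranged from 0.0019 to 0.068 over the alternatives. Of the windows of Gabarapl2, 17.0% recur in other genes, mostly Gm3724. Gabarap had 303, 323 and 328 TPM with DMSO, 240, 253 and 228 with LPS, and 232, 222 and 242 with LPS+Ska. The treated groups overlapped below DMSO, with log2 differences of -0.40 (adjusted p = 3.0e-04) and -0.45 (adjusted p = 1.2e-04) that were inside the fold change limits.

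Map1lc3b, the LC3 gene most used as an autophagosome marker, had 44.4, 44.6 and 48.0 TPM with DMSO, 39.2, 35.6 and 42.7 with LPS, and 40.8, 38.7 and 42.9 with LPS+Ska. All treated columns lay slightly below DMSO, by -0.22 with LPS (adjusted p = 0.036) and -0.16 with LPS+Ska (adjusted p = 0.11). Map1lc3a was low and scattered, at 6.32, 4.06 and 3.03 TPM with DMSO, 2.22, 1.70 and 2.74 with LPS, and 4.05, 2.1997 and 5.89 with LPS+Ska. Its log2 fold change was -0.73 with LPS (adjusted p = 0.058) and 0.59 for LPS+Ska against LPS (adjusted p = 0.17). Neither passed the test. The fall with LPS was called, though, with the recovered values, with the compared groups alone, and without DMSO replicate 7 or LPS+Ska replicate 6 or 7. The value for LPS+Ska against LPS was called without LPS+Ska replicate 6. The 5 genes summed to 464 to 493 TPM in the DMSO columns, 378 to 385 with LPS and 375 to 422 with LPS+Ska, and Gabarap made up 65.3 to 67.1%, 60.2 to 65.7% and 57.2 to 59.2% of the sum.

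Of the cargo receptors, Calcoco1, which has been described as an ER-phagy receptor, fell in both treated groups. It had 7.68, 6.27 and 6.79 TPM with DMSO, 3.57, 2.78 and 4.36 with LPS, and 3.34, 3.72 and 2.95 with LPS+Ska. The treated groups overlapped each other and lay below DMSO. The log2 fold change was -0.80 with LPS (standard error 0.15, adjusted p = 0.0013) and -0.87 with LPS+Ska (standard error 0.15, adjusted p = 7.5e-04), and both calls were lost after removal of the GC trend (-0.36 and -0.33). Nbr1, a receptor for ubiquitinated cargo, was at -0.33 in LPS+Ska against LPS (adjusted p = 0.033, inside the fold change limit), with an adjusted p of up to 0.11 over the alternatives. Tax1bp1, the most abundant of the 4 listed cargo receptors at 76.0 to 99.2 TPM over all columns, did not pass the test in any comparison.

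The fold changes with LPS followed transcript GC content. Over the 34 genes, Spearman's rho between the GC content of the longest transcript and the log2 fold change was -0.79 for LPS against DMSO and -0.77 for LPS+Ska against DMSO, and over all genes it was -0.55 and -0.53. These are correlations across genes that share libraries. The 9 genes called lower with LPS had 49.5 to 58.0% GC, and the other 25 had 39.1 to 63.1%. For each column the deviation from each gene's mean over all 9 columns was used, so the slopes are relative between columns. Per 10% GC this deviation changed by 0.32 to 0.36 on the log2 scale with DMSO. It changed by -0.18 to -0.15 with LPS and by -0.28 to -0.070 with LPS+Ska. After removal of this trend from each column, LPS left 1 gene higher and 3 lower, and LPS+Ska left Vmp1 higher and Atg4b and Ambra1 lower than DMSO. The part of GC content in these differences was not tested further, since it moves with the groups and cannot be told apart from treatment. For LPS+Ska against LPS the correlation with GC was -0.063 over the 34 genes, that with transcript length was -0.43 (-0.20 over all genes), and Atg10 was called after removal of either trend.

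**Figure D4:**
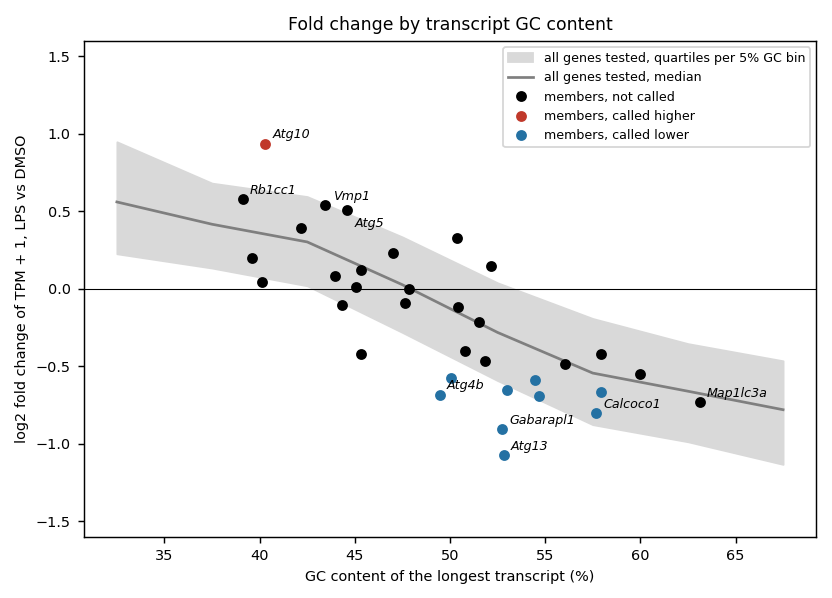
Log2 fold change of TPM + 1 in LPS against DMSO (y axis) against the GC content of the longest transcript (x axis, percent). The line and band are the median and quartiles of all genes tested in bins of 5% GC, and points are the 34 autophagy genes (red called higher, blue called lower). Points further to the right tend to lie lower, and Atg10 at 0.94 lies above the band and Atg13 at -1.08 below it.

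Genes around this machinery were taken from a list of 59 regulators, receptors and fusion factors, of which 56 were tested. With LPS 3 were called higher and 9 lower, where 12.7% and 20.0% of all genes were. With LPS+Ska against LPS none was called higher by limma and 2 lower, where 3.35% and 6.14% of all genes were. At an unadjusted p below 0.05 in that comparison 6 were higher and 16 lower, against 12.7% and 27.8% of all genes. Deptor, an inhibitor of the kinase mTOR, had 2.81, 4.21 and 4.83 TPM with DMSO, 3.79, 3.83 and 3.75 with LPS, and 1.52, 1.77 and 1.28 with LPS+Ska. The LPS+Ska columns lay below all others, with a log2 fold change of -0.93 against LPS (standard error 0.17, adjusted p = 0.0040) that held in all 18 alternatives. Epg5 encodes a tether for fusion with lysosomes. It had 7.52, 6.48 and 6.39 TPM with DMSO, 8.18, 8.01 and 8.34 with LPS, and 5.09, 6.42 and 3.77 with LPS+Ska. The LPS+Ska columns overlapped those of DMSO and lay below those of LPS (-0.61 against LPS, adjusted p = 0.017). This call was lost in 7 of 19 alternatives. It was lost without replicate 5 or 7 of LPS or LPS+Ska (-0.63 to -0.45), and with median-ratio scaling. Removal of the length trend (-0.35) or the GC trend also lost it.

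Tfeb and Sqstm1 were named after their values were seen. Tfeb, the transcription factor that activates lysosome and autophagy genes, had 34.0, 27.7 and 36.6 TPM with DMSO, 5.21, 5.31 and 5.10 with LPS, and 6.95, 7.11 and 6.78 with LPS+Ska. No columns overlapped between groups. It fell by 2.44 on the log2 scale with LPS (standard error 0.11, adjusted p = 2.1e-07), a call held in all 19 alternatives, and was at 0.36 in LPS+Ska against LPS (adjusted p = 0.034). Sqstm1, which encodes the receptor p62, had 382, 385 and 471 TPM with DMSO, 394, 364 and 424 with LPS, and 539, 519 and 559 with LPS+Ska. The LPS+Ska columns lay above all others, by 0.45 against LPS (standard error 0.09, adjusted p = 0.0056), a fold change of 1.37 inside the limit.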

How the data were processed

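RNA from 9 samples of RAW264.7 cells was sequenced, and the authors deposited TPM per gene. The submitters' processing notes name fastp 0.20.1, HISAT2 2.2.1, StringTie 2.0 and the build mm10. The annotation, and whether strand was used in counting, are not given in the sources used here, so overlapping and antisense genes cannot be told apart. TPM keeps no depth, so no counting interval could be given. Symbols matched 55141 of 55401 identifiers. Samples were grouped by the treatment in their labels.

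The 12819 genes whose TPM averaged at least 1 entered a limma fit (version 3.58.1, R 4.3.3, moderated with a trend on mean level) of log2(TPM + 1) over the 9 columns. A call needed an adjusted p under 0.05 together with a fold change over 1.5 or under 0.67, limits that follow the study. The fit was tested on simulated data, with independent and with tied columns. The genes and lists were chosen with earlier results of these data known.

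Column values are given for genes called in LPS+Ska against LPS, for LC3 and GABARAP genes, and for up to 5 genes per direction with the largest called change against DMSO. Of the related genes, those called in LPS+Ska against LPS are given in this way. Others named are said to be so. Transcript GC content, length, exon overlap and shared 50-base windows came from the GENCODE annotation of the GRCm38 (mm10) genome, and GC content was found for 12805 genes. Promoters came from RefSeq. As alternatives, each column was left out, the pseudocount was set to 0.1, the filter was dropped or raised to 5 TPM, the columns were scaled by median ratios, the recovered values were used, only the groups compared were fitted, the trend on mean level was omitted, a replicate block was added, length or GC trends were removed by loess (span 0.3), and the fold change limits were dropped. Leaving out a column of LPS or LPS+Ska removed no independent value, since the remaining columns of the group still determine it. Without a column of a group not compared the fold change stayed as it was, and dropping the fold change limits cannot remove a call. The alternatives are therefore not independent checks. Same-numbered deviations from group means correlated at 0.38, 0.15 and 0.13 between LPS and LPS+Ska, which the tied columns share in form, and at -0.032 to 0.080 otherwise, so no pairing was assumed. Plots were made with Python 3.11.15 and matplotlib 3.10.9.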

Additional observations from a re-analysis of the deposited data

How the results depend on the processing

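No called gene changed direction in any alternative run, but the median over the autophagy genes for LPS+Ska against LPS changed sign in 3. Counts of autophagy genes called are given as higher and lower, beside 1 and 9 for LPS against DMSO, 0 and 1 for LPS+Ska against LPS, and 2 and 9 for LPS+Ska against DMSO. For LPS against DMSO, 2 were higher with a pseudocount of 0.1, 4 with median-ratio scaling (and 6 lower) and 3 with the length trend removed, and 3 were lower with the GC trend removed. By the adjusted p alone the counts were 6 and 16, 4 and 5, and 5 and 17 (of all genes 26.2% and 34.2%, 8.89% and 19.7%, and 22.7% and 40.6%). With the GC trend removed LPS+Ska against DMSO gave 1 and 2. Without the filter on low values this comparison gave 3 and 9, with Optn, which lay below 1 TPM in every column, called higher. Leaving out each column gave 1 to 3 and 8 to 10 for LPS against DMSO (3 higher without DMSO replicate 6, 2 without LPS replicate 7), 0 to 2 and 1 to 2 for LPS+Ska against LPS (Map1lc3a, Gabarapl1 and Atg2b added without LPS+Ska replicate 6), and 1 to 2 and 8 to 10 for LPS+Ska against DMSO. The median log2 fold change of -0.17 with LPS became -0.087 with median-ratio scaling. That of -0.058 for LPS+Ska against LPS turned positive, at 0.039 with median-ratio scaling, 0.041 with the length trend removed and 0.031 with the GC trend removed. That of -0.20 for LPS+Ska against DMSO became -0.021, -0.087 and -0.11 in these fits, and -0.27 to -0.20 over left-out columns, with -0.27 without LPS+Ska replicate 6 and -0.26 without replicate 7. The causes of these moves were not tested. The fit with a replicate block gave 1 and 9, 0 and 1, and 2 and 9, and changed no call. The recovered values gave the same counts, but with Map1lc3a in place of Atg14 among those lower with LPS. Among named genes, 607 values kept their side of the limits, 40 lost a call and 10 gained it. The gains of Nbr1, Vmp1, Atg4b, Atg13, Gabarapl1, Gabarapl2, Ambra1 and Atg2b by the adjusted p alone were fixed by how these genes were chosen. In that run called genes keep their call by construction, and leaving out a column of a group not compared leaves the fold change as it was. These counts therefore do not measure robustness. Calcoco1 was not tested with a mean TPM of at least 5. With 2 independent values in each treated group and depth unknown, differences in genes near 1 TPM could not be resolved.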
